A study of Mus musculus with 6 samples.

Results

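The genes described here encode NADPH oxidases and their partners in colon tissue of mice with chemically induced colitis. They were the 9 genes Duox2, Duoxa2, Nox1, Noxo1, Cybb, Cyba, Ncf1, Ncf4 and Rac2, taken with every probe set that the platform annotation assigned to that gene alone. Such probe sets existed for 7 of the 9 genes, 12 probe sets in all, among 18194 genes named on the array. Duox2 and Nox1 had no probe set assigned to them and were not analysed here. Each gene is led by its probe set of highest mean over the 6 arrays.

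All mice were C57BL/6, 6 to 8 weeks old, and carried floxed alleles of Pparg (PPAR gamma fl/fl). The 3 deficient mice were Lysozyme M Cre+, so that the receptor gene is removed in cells that use the lysozyme promoter, mainly macrophages and neutrophils. The 3 control mice were Cre- littermates. All 6 received 2.5% dextran sodium sulfate (DSS), a polymer that injures the colonic epithelium, in their drinking water and were killed on day 7. No mouse without DSS was measured. Cre sits at the lysozyme gene Lyz2 and was present in the deficient group only, so an effect of Cre or of altered Lyz2 cannot be told apart from one of the receptor's loss. The arrays read total RNA of whole colon, 1 mouse per array, labelled as biological replicates.

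NADPH oxidases move electrons from NADPH across a membrane onto oxygen and so make superoxide or hydrogen peroxide. In phagocytes the catalytic subunit is gp91phox (Cybb), which is held in the membrane by p22phox (Cyba) and switched on by cytosolic proteins that include p47phox (Ncf1), p40phox (Ncf4) and the small GTPase Rac2. Colonic epithelium uses related enzymes: NOX1, which shares p22phox and takes NOXO1 as the organiser in place of p47phox, and DUOX2, which needs its maturation factor DUOXA2 to reach the cell surface. The epithelial enzymes supply hydrogen peroxide to the mucus and respond to microbes, and the phagocyte enzyme feeds the respiratory burst. With Duox2 and Nox1 unmeasured, the epithelial side rests on the partner genes Duoxa2 and Noxo1, and whole-tissue RNA does not show which cells a transcript came from.

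The upstream sequences of 4 of the genes are shown first, because they span the range of base composition among the members, which did not separate the epithelial from the phagocyte genes. They come from RefSeq on GRCm38.p6, whose promoter table held 7 of the 9 genes and not Ncf4 or Rac2. Each runs 5′ to 3′ on the gene's strand and ends at the base before the annotated start, and bases inside a neighbouring gene were removed. Capitals mark TATAAA in Duoxa2, TGANTCA, the AP-1 element, in Cybb, and TTCNNNGAA, the STAT element, in Ncf1. The Duoxa2 stretch (chr2:122298741-122298899, + strand) is the whole gap of 159 bases between Duox2 and Duoxa2, which lie head to head. The Noxo1 stretch (chr17:24696157-24696233, + strand) is bounded by the gene Gfer. The Cybb stretch is chrX:9469325-9469574 and the Ncf1 stretch chr5:134229626-134229875, both on the - strand.
Duoxa2: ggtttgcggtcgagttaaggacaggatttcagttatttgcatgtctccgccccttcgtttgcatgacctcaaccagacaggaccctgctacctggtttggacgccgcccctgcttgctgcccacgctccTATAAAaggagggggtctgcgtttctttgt
Noxo1: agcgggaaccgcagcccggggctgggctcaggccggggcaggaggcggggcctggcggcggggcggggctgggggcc
Cybb: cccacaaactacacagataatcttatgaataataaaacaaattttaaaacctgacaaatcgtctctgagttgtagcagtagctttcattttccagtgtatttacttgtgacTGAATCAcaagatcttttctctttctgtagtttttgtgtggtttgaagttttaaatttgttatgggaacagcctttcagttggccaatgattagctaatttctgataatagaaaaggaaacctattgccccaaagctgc
Ncf1: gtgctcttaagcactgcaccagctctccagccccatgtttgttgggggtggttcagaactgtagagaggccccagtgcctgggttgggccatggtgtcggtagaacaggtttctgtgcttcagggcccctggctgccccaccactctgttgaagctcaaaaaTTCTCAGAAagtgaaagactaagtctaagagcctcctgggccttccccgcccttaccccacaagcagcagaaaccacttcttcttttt
The next figures use the 250 bases before the start, including bases inside Gfer or Duox2 that were not printed. Over them Noxo1 was 80.0% G or C with 37 CG pairs, above 98.8% of the 32851 promoters in G and C content. The 77 printed bases of Noxo1 alone were 85.7% G or C with 8 CG pairs. Cybb lay at the other end, at 34.0% with 1 CG pair, and 3.87% of promoters were lower. The median promoter had 52.4% and 6 CG pairs. Nox1 resembled Cybb at 38.0%, while Duoxa2 at 56.4% and Ncf1 at 54.4% were near the median. Each motif was searched on both strands over those 250 bases, and none overlaps another here. TATAAA was found in Duoxa2 alone among the 7 genes, 30 bases before the start, and in 12.4% of all promoters. TGANTCA was found in Cybb and in Duoxa2, the latter outside the printed stretch, and in 6.75% of promoters. TTCNNNGAA was found in Ncf1 and in 7.02% of promoters. GAGGAA, a purine box of the kind that the myeloid factor PU.1 binds, was found in Nox1 and in 23.3%. AGGTCA, the element that nuclear receptors bind in pairs, was found in Duoxa2 on the other strand, not capitalised, and in 14%. A match describes these letters and is not a measured binding site.

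Some facts of the arrays bear on every value. A pair of them, control replicate 1 at 15.46 and deficient replicate 3 at 15.23, had high Apoa1, the gene of a lipoprotein component made by small intestinal enterocytes, which spanned 3.82 to 7.38 elsewhere. Those 2 are called Apoa1-high arrays here, and the other 4 Apoa1-low arrays. The colonocyte gene Car1 ran opposite, at 2.83 and 7.02 against 13.60 to 15.32, so control replicate 1 lacked this marker of the labelled tissue and deficient replicate 3 had less of it. Another colonocyte gene, Car4, named after its values were seen, was not low on both, at 11.02 and 13.37 against 11.89 to 13.16. Results are given with and without both arrays. Control replicate 2 alone showed Xist, the transcript of the inactive X, at 12.11 against 2.25 on the others. Pparg read 5.28, 9.91 and 9.54 in control and 8.77, 8.23 and 4.15 in deficient samples, overlapping ranges that do not check the deletion, and epithelial cells, which also express it, keep it. Lyz2 read 12.32, 11.79 and 12.19 in control and 6.80, 6.24 and 10.39 in deficient samples. Values throughout are on a log2 scale, where 1 unit is a factor of 2.

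The oxidase genes had a higher mean in the deficient colon for all 7 measured members, and for 5 of the 7 every deficient array lay above every control array. None of them passed the test. Genotypes were compared with limma across 10491 genes that exceeded log2 4 on at least 3 arrays, with Benjamini-Hochberg adjustment, and no gene had an adjusted p under 0.05 (0% called, smallest 0.536), while 783 genes, 7.46%, had an unadjusted p under 0.05. Of the members, 6 entered that test and Duoxa2 did not. All 6 had a difference above 0, as 57.0% of tested genes did. In 4 of the 6 the groups did not overlap and the deficient group was higher, where 9.36% of all tested genes behaved so. An unadjusted p under 0.05 in the higher direction was reached by 3 of the 6, against 5.1% of all genes, and in the lower direction by 0 of the 6, against 2.36%. The median difference of the 6 was 0.74, against 0.06 over all genes tested. Among the 4 Apoa1-low arrays the groups stood apart for 5 of the 6, against 30.5% of all genes. Between the Apoa1-high arrays 5 of the 6 were higher in the deficient sample, against 50.4%.

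**Figure D1:**
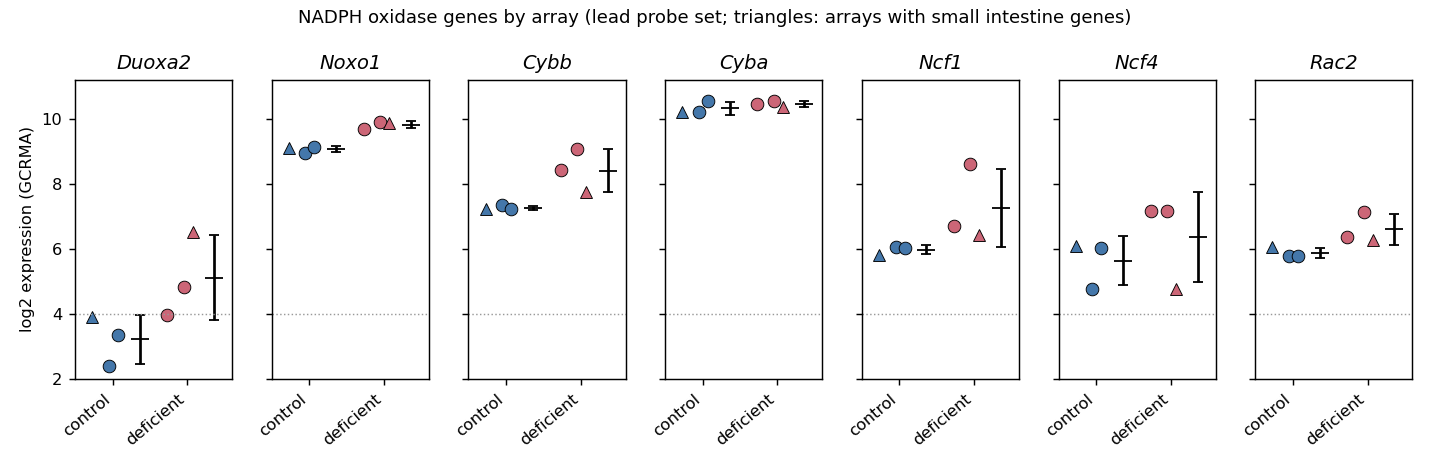
Log2 expression of the lead probe set of each measured gene in 3 control (blue) and 3 deficient (red) arrays; triangles mark the Apoa1-high arrays, keyed there by their small intestine genes, bars give the mean and SD (n = 3), and the dotted line is log2 4. Deficient points lie above all control points for Duoxa2, Noxo1, Cybb, Ncf1 and Rac2 and overlap for Cyba and Ncf4; levels of different genes cannot be compared across panels.

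Noxo1 gave the most even separation. NOXO1 is the scaffold that holds the NOX1 complex together in colonic epithelium. Its probe set (1425151_a_at, chromosome 17) read 9.11, 8.96 and 9.13 in control and 9.69, 9.90 and 9.86 in deficient samples. The lowest deficient array exceeded the highest control array by 0.56, several times the SD within either group. The means were 9.82 ± 0.11 in deficient and 9.07 ± 0.09 in control samples (SD, n = 3 each), a difference of 0.75 (SE 0.15, interval 0.38 to 1.12), or 1.68-fold. The limma adjusted p was 0.659 and the unadjusted p 0.0028, and 0.362% of genes had a smaller one. The size was the same in both array sets: Noxo1 differed by 0.75 among the 4 Apoa1-low arrays and by 0.75 between the Apoa1-high arrays, and the interaction of genotype with profile was 0.00 (limma adjusted p 1, unadjusted 0.993).

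Duoxa2 differed by 1.90 in the mean, with low values in the control group. DUOXA2 lets DUOX2 leave the endoplasmic reticulum. The only probe set (1422137_at, chromosome 2) read 3.91, 2.40 and 3.35 in control and 3.98, 4.84 and 6.53 in deficient samples. Every control value was under log2 4, and the groups were parted by only 0.07. The highest value came from deficient replicate 3, an Apoa1-high array, and the next highest from deficient replicate 2. In the fit without a filter on low values, over 18194 genes, the difference was 1.90 (SE 0.82, interval -0.29 to 4.08) with a limma adjusted p of 0.847. Without that filter the groups stood apart in the higher direction for 5.83% of genes. With values under 4 set to 4 the difference was 1.12, and without deficient replicate 3 it was 1.19. It was 1.54 among the 4 arrays and 2.62 between the Apoa1-high arrays, with no passing interaction (1.09, limma adjusted p 0.995). The neighbouring pair Duoxa1 and Duox1, the other maturation factor and its oxidase, stayed at or below 2.43 on all arrays.

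Pan-epithelial markers lay close together in the groups. Those 8 averaged 12.86 to 13.20 per control array and 12.90 to 13.03 per deficient array, with a median difference of -0.02, and 3 were higher and 5 lower. Krt8, Epcam and Krt19, keratins and an adhesion molecule of all gut epithelium, differed by -0.01, -0.05 and -0.03. Goblet cell markers were likewise 4 higher and 4 lower, with a median of -0.02. Of 12 colonocyte markers 7 were higher and 5 lower, with a median of 0.30, and of 9 tested small intestine markers 2 were higher and 7 lower, with a median of -1.01. Epithelial genes known to respond to microbes mostly ran higher: 12 of 15 tested members were higher, against 57.0% of all genes, and 0 passed. In 6 of them the groups stood apart in the higher direction, against 9.36% of all genes. The median was 2.08, against 0.06. Their mean level was 7.50 to 9.75 on control and 9.77 to 11.08 on deficient arrays. Among them Socs3, a brake on cytokine signalling, differed by 2.30 and Tnfaip3, a brake on NF-kappaB, by 1.29. The cytokine Il18 differed by 1.23 and the chemokine Cxcl5 by 4.46, and these 4 had the smallest unadjusted p of the list. The 3 lower members, named after their values were seen, were Reg3b at -0.6, Pigr at -0.42 and Tlr2 at -0.23. Reg3g differed by 0.06. Whether the microbe-responsive genes and Noxo1 or Duoxa2 share a source was not tested.

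Cybb, the catalytic subunit of the phagocyte oxidase, was tight in control colon and spread out in deficient colon. Its lead probe set (1436778_at) read 7.24, 7.34 and 7.24 in control and 8.42, 9.07 and 7.75 in deficient samples. The control arrays spanned 0.10 and the deficient arrays 1.32, with deficient replicate 2 highest and replicate 3 lowest. The difference of 1.14 (SE 0.34, interval 0.29 to 1.99), 2.2-fold, between means of 8.41 ± 0.66 and 7.27 ± 0.06 (SD, n = 3 each), had a limma adjusted p of 0.659 and an unadjusted p of 0.0167. Only 3.33% of genes had a larger difference. Both further probe sets ran the same way, at 1.37 for 1422978_at and 1.24 for 1436779_at, with limma adjusted p of 0.63 and 0.695 in a fit of single probe sets. The first of these passed the filter only through the deficient arrays, so it had to be higher, and the second overlapped between groups. Over all kept probe sets, 8.51% stood apart in the higher direction and 4.71% were higher with an unadjusted p under 0.05. Cybb lies on the X chromosome, and the control array with Xist, at 7.34, was within 0.10 of the other controls. The difference was 1.46 among the 4 Apoa1-low arrays (limma adjusted p 0.265) and 0.51 between the others, and the interaction did not pass (-0.95, adjusted p 0.936).

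Cyba, which stabilises both gp91phox and NOX1, hardly differed. Its probe set (1454268_a_at, chromosome 8) read 10.20, 10.21 and 10.55 in control and 10.45, 10.55 and 10.35 in deficient samples. The groups overlapped, with control replicate 3 level with the highest deficient array. The difference was 0.13 (SE 0.17, interval -0.29 to 0.55) at a limma adjusted p of 0.873. The interval leaves room for a rise of up to 0.55 or a fall of up to 0.29, so equal levels are not shown. The difference was 0.12 among the 4 arrays and 0.15 between the Apoa1-high arrays.

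Ncf1, the p47phox organiser, followed 1 array most strongly. The lead probe set (1456772_at, chromosome 5) read 5.81, 6.07 and 6.04 in control and 6.72, 8.62 and 6.43 in deficient samples. All deficient arrays were above all controls by at least 0.36, but deficient replicate 2 stood 2.64 above the control mean and the others 0.75 and 0.45. The difference was 1.28 (SE 0.59, interval -0.17 to 2.73) with a limma adjusted p of 0.686, and 0.60 without deficient replicate 2. A further probe set (1451767_at) read 4.54 ± 0.24 in control and 4.57 ± 0.03 in deficient samples (SD, n = 3 each), a difference of 0.03, and the remaining one (1425609_at) lay at 2.25 on all 6 arrays. The probe sets of Ncf1 therefore disagree, and its difference is uncertain. The lead differed by 1.61 among the 4 arrays and by 0.61 between the others.

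Ncf4, encoding p40phox, was the member whose difference had opposite signs on the Apoa1-low and the Apoa1-high arrays. Its probe set (1418465_at, chromosome 15) read 6.10, 4.78 and 6.04 in control and 7.17, 7.18 and 4.77 in deficient samples. Deficient replicate 3 was the lowest of all arrays, level with control replicate 2, while both other deficient arrays were the highest. Over all arrays the difference was 0.74 (SE 0.76, interval -1.15 to 2.62; limma adjusted p 0.83). It was 1.76 among the 4 Apoa1-low arrays, with a limma adjusted p of 0.305, and -1.32 between the Apoa1-high arrays. The latter compares 1 array with 1, and the interaction of genotype with profile did not pass. Leaving out deficient replicate 3 gave 1.54, and leaving out control replicate 2, deficient replicate 1 or deficient replicate 2 gave 0.30, 0.34 and 0.33.

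Rac2, the GTPase of blood cells that completes the phagocyte enzyme, resembled Cybb at a smaller size. Its lead probe set (1417620_at, chromosome 15) read 6.05, 5.77 and 5.78 in control and 6.38, 7.15 and 6.27 in deficient samples. Every deficient array was above every control array, by at least 0.21, and deficient replicate 2 was again highest. The difference was 0.73 (SE 0.28, interval 0.05 to 1.41), with a limma adjusted p of 0.667 and an unadjusted p of 0.0397. It was 0.45 without deficient replicate 2. The other probe set (1440208_at) lay between 2.28 and 2.30 on all arrays and carries no information. Rac2 differed by 0.99 among the 4 arrays and by 0.21 between the Apoa1-high arrays.

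**Figure D2:**
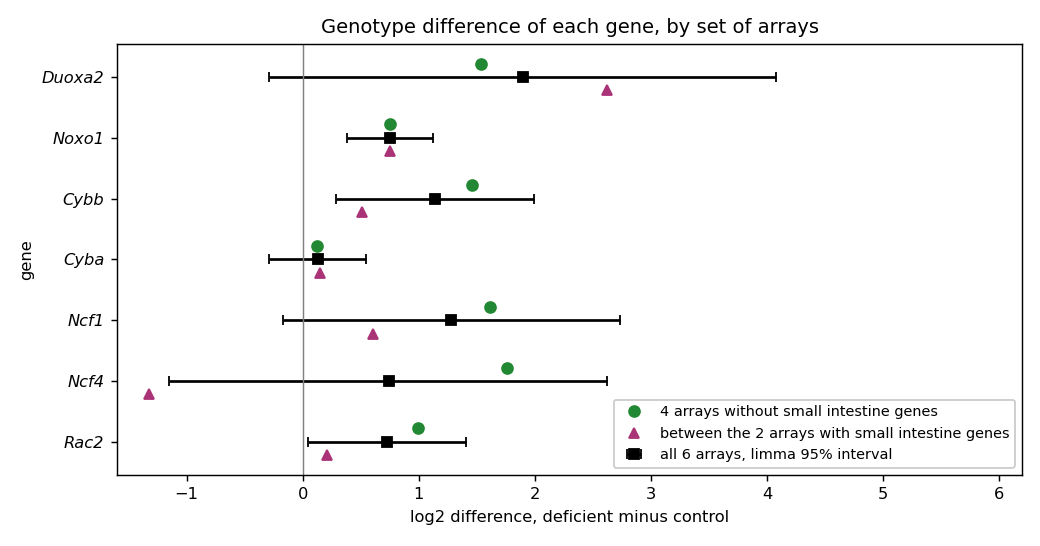
Log2 difference, deficient minus control, of each measured gene: black squares and bars give all 6 arrays with the limma 95% interval (Duoxa2 from the fit without a filter), green circles the 4 Apoa1-low arrays and purple triangles the difference between the Apoa1-high arrays. Intervals lie above 0 for Noxo1, Cybb and Rac2 before adjustment, Noxo1 is 0.75 in each set, and Ncf4 changes from 1.76 to -1.32.

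The members did not all share a pattern over the 6 arrays. Deficient replicate 2 was the highest array for 6 of the 7 genes, against 28.9% of all genes tested, and Duoxa2 was the exception. As a description over 6 arrays from 2 groups, Cybb, Ncf1 and Rac2 followed each other with Pearson r of 0.94 and 0.95 between Cybb and each of them and 0.95 between Ncf1 and Rac2. Noxo1 correlated with Cybb and Rac2 at 0.82 and 0.83 and with Duoxa2 at 0.82. Duoxa2 was at 0.39 with Cybb and -0.03 with Ncf4. These values share the group difference and the tissue profile of the arrays. The deficient arrays show where the patterns part: above the control mean, replicates 1, 2 and 3 stood at 1.14, 1.80 and 0.48 for Cybb, at 0.62, 0.84 and 0.79 for Noxo1 and at 0.76, 1.62 and 3.31 for Duoxa2.

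The tested genes most like Cybb over the 6 arrays were Sting1, a sensor adaptor for cytosolic DNA, with Pearson r 0.996, Il1r2, a decoy receptor for interleukin 1, with 0.992, Nucks1 with 0.990 and Ddx52 with 0.988. With only 6 arrays, 384 genes had r over 0.9, so the likeness is a description only. Sting1 read 5.66, 5.72 and 5.48 in control and 6.96, 7.73 and 6.31 in deficient samples, and Il1r2 differed by 3.33. For Noxo1, chosen for this after the values were seen because Duox2 and Nox1 have no probe set, the closest were Tgm2, a transglutaminase, Tpgs2, Rps6 and Pitrm1, with r from 0.989 to 0.990. Tgm2 differed by 1.06 and Tpgs2 by 0.86, and a higher level in deficient samples follows from choosing them for likeness to Noxo1.

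Most tested markers of phagocytes had higher values in deficient samples, and none passed. Of 17 tested macrophage and monocyte markers 14 were higher, against 57.0% of all genes, 0 passed and the median was 0.99. In the higher direction 7 stood apart, and in the lower direction 2, Lyz2 and Cx3cr1, against 4.15% of all genes. Itgam among the 17 passed the filter only through the deficient arrays. Without it 13 of 16 were higher, 6 stood apart in the higher direction, against 9.36% of all genes, and the median was 0.86. The averages per array include Itgam, so they cannot show whether the groups part. All 17 averaged 7.50 to 7.94 on control and 7.98 to 8.83 on deficient arrays. Without Lyz2, but with Itgam, the remaining 16 averaged 7.20 to 7.67 on control and 7.83 to 8.99 on deficient arrays. Deficient replicate 2 was again highest. C1qb, a complement subunit made by macrophages, differed by 1.19 and Csf1r, the growth factor receptor of macrophages, by 0.64. The 3 lower markers, named after their values were seen, were Lyz2 at -4.29, Mertk at -0.77 and Cx3cr1 at -0.31. Neutrophil markers were mostly out of range: of 14 with a probe set 4 passed the filter. All 4 were higher with a median of 3.69, but Il1r2 among them passed only through the deficient arrays. Without Il1r2, 3 of 3 were higher, against 57.0% of all genes, 0 stood apart and the median was 4.06. The mean level of all 4 was 4.24 to 6.12 on control and 6.24 to 10.20 on deficient arrays. It includes Il1r2, so it cannot show whether the groups part. S100a8 and S100a9, the calprotectin subunits, differed by 4.06 and 4.65 with overlapping groups, and Mmp9 by 1.11. The other 10 were under the filter and are named here after their values were seen. The granule genes Mpo, Elane, Camp and Ngp stayed between 2.25 and 2.66 on all 6 arrays, and Cxcr2, a chemokine receptor, between 2.26 and 2.32. Trem1, an activating receptor, read 3.02, 2.94 and 2.92 in control and 4.66, 6.04 and 3.59 in deficient samples, so its groups were apart. Clec4d, a lectin receptor, read 2.45 to 2.60 in control and 6.23, 8.54 and 2.45 in deficient samples. Mmp8, a collagenase, and Csf3r, the receptor for granulocyte colony-stimulating factor, exceeded log2 4 on deficient replicate 2 alone, at 5.15 and 5.04, and the granule gene Ltf reached at most 3.59. In bulk tissue a change in the number of a cell type and a change in RNA per cell cannot be told apart, and the part these cells had in the values of Cybb, Ncf1, Ncf4 and Rac2 was not tested. Lymphocyte markers did not run the same way: 1 of 3 B and plasma cell markers was higher (Xbp1 by 0.34, Jchain at -2.26 and Mzb1 at -1.89) and 0 of 2 T cell markers (Cd3d at -0.11, Cd3g at -0.79).

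**Figure D3:**
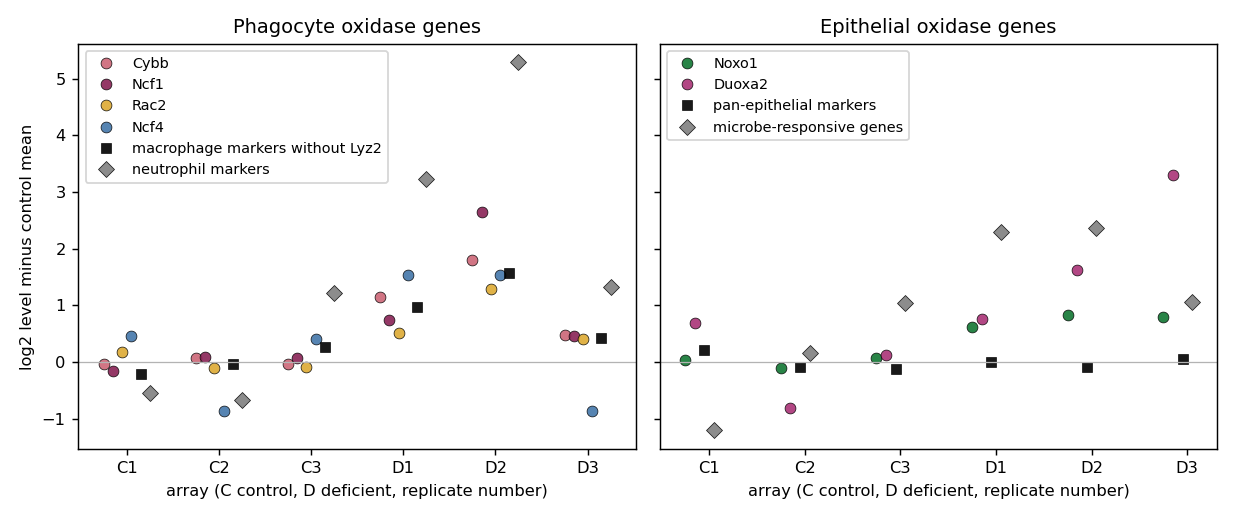
Log2 level minus the control mean on each array (C1 to C3 control, D1 to D3 deficient) for phagocyte oxidase genes with the mean of macrophage and of neutrophil markers (left) and for epithelial oxidase genes with the mean of pan-epithelial markers and of microbe-responsive genes (right). Cybb, Ncf1 and Rac2 peak on D2 with both marker means, Duoxa2 is highest on D3 at 3.31, and pan-epithelial markers stay near 0. The macrophage mean leaves out Lyz2. Itgam in it and Il1r2 in the neutrophil mean passed the filter only through the deficient arrays, so neither mean can show whether the groups part.

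The other oxidase components differed little apart from 1 gene. Of 10 other components, 7 had a probe set and 4 were tested, with 2 higher, 2 lower, 0 passing and a median of 0.06. Cybc1, a chaperone needed for gp91phox to mature, read 7.73, 7.47 and 7.24 in control and 8.22, 8.47 and 7.76 in deficient samples. Its groups were apart, though by little, and the difference was 0.67 (limma adjusted p 0.667, unadjusted 0.0356). The ubiquitous GTPase Rac1 and the related Rac3 differed by -0.04 and -0.05. Hvcn1, the proton channel that balances the charge of the burst, differed by 0.17. That came from control replicate 2 alone, at 4.83 against 5.33 on every other array. Nox4, an oxidase of stromal and kidney cells, was under log2 4 on all arrays. Nox3 and Noxa1, a further oxidase and an activator subunit, had no probe set of their own and were not analysed here.

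Most regulators that switch on the phagocyte oxidase had higher values in deficient samples. Of 14 tested members 12 were higher, against 57.0% of all genes, and 2 lower. Of the 14, 0 passed, 8 stood apart in the higher direction and the median was 1.16. Itgam and Fcgr1 were also on the macrophage and monocyte list, so the lists share members. Vav1 and Itgam passed the filter only through the deficient arrays and so had to be higher. Without them 10 of 12 were higher and 2 lower, 6 stood apart, against 9.36% of all genes, and the median was 1.08. Vav1, which loads Rac with GTP, differed by 1.56 and Itgam, the alpha chain of the complement receptor integrin, by 1.76. The Fc receptors Fcgr4 and Fcgr1, which trigger the burst on antibody-coated targets, differed by 1.84 and 2.18. Fcgr4 read 6.12, 5.34 and 6.78 in control and 8.24, 7.93 and 7.60 in deficient samples, so its groups were apart and its order among the deficient arrays was not that of Cybb.

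Enzymes that remove superoxide and hydrogen peroxide split in both directions. Of 18 tested members 13 were higher, 5 lower and 0 passed, with a median of 0.23. Gpx2, the epithelial glutathione peroxidase of the gut, read 13.08, 12.04 and 12.32 in control and 13.66, 13.92 and 14.43 in deficient samples. Its groups were apart and its highest value, as for Duoxa2, was on deficient replicate 3. The difference was 1.52 (limma adjusted p 0.659, unadjusted 0.0048). Catalase (Cat), which breaks down hydrogen peroxide in peroxisomes, read 10.96, 10.40 and 10.29 in control and 9.18, 9.03 and 10.33 in deficient samples. It differed by -1.03, with overlap on deficient replicate 3. Gpx4, which reduces lipid peroxides, was lower by -0.49 with separate groups, and Prdx4, a peroxiredoxin of the endoplasmic reticulum, was higher by 0.62 with overlap.

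Genes controlled by the oxidant-sensing factor Nrf2 did not share a direction. Of 10 tested members 4 were higher and 6 lower, 0 passed, and the median was -0.11. Gclm, which sets the rate of glutathione synthesis with its catalytic partner, read 10.06, 10.16 and 10.35 in control and 9.70, 9.71 and 9.29 in deficient samples, so the groups were apart in the lower direction, at -0.62. In that direction 4.15% of all genes stood apart. Me1 and Pgd both regenerate the NADPH that oxidases and reductases spend. Me1 was lower by -1.17 and Pgd higher by 0.41, each with separate groups, while Nqo1, a quinone reductase, differed by -0.71 with overlap. Of the heme peroxidases, which use hydrogen peroxide, Mpo and Epx lay at 2.25 on all arrays, and Lpo and Pxdn differed by 0.18 and 0.21.

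**Figure D4:**
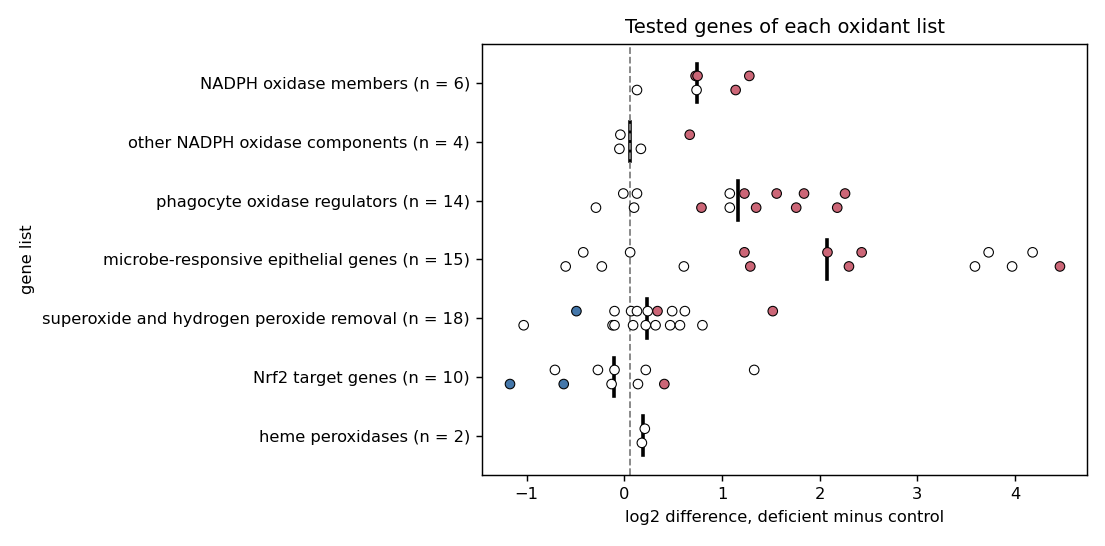
Log2 difference, deficient minus control, of each tested gene (points) in the oxidase list and 6 further lists; red points are apart and higher in deficient samples, blue points apart and lower, white points overlap, black bars are list medians and the dashed line is the median of all tested genes, 0.06. The members have a median of 0.74, the phagocyte oxidase regulators 1.16 and the Nrf2 target genes -0.11. The regulators include Vav1 and Itgam, which passed the filter only through the deficient arrays, and have a median of 1.08 without them.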

How the data were processed

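Affymetrix whole-genome mouse arrays of 6 mice were analysed from the log2 values that the authors deposited, 1 per probe set and array. The submitters' processing notes name GCRMA, with settings not given in the sources used here. GCRMA subtracts background modelled on probe sequence, so values near the floor of 2.25 are compressed. Platform annotation named 1 gene for 34958 of 45101 probe sets. Those above log2 4 on at least 3 arrays were kept (17031), and each gene took its kept probe set of highest mean (10491 genes). The genotype contrast, deficient minus control, was fitted in limma 3.58.1 under R 4.3.3 with lmFit and eBayes (two-sided), with Benjamini-Hochberg adjustment over all genes, a threshold of 0.05 and 95% intervals. The code was tested on simulated data. Precision is limited by having 3 arrays a group. Members and lists were chosen with earlier results of these data known, so no p over members or lists is given. Apart means that the lowest array of one group exceeded the highest of the other. Named genes were the members, Pparg, Lyz2, every tested oxidase component, up to 4 genes of smallest p per pathway list, up to 3 of highest mean per marker list, and the 4 genes most like Cybb. Alternatives changed the filter, scaling, probe set choice, moderation, weights, floor, blocks and arrays.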

Additional observations from a re-analysis of the deposited data

Results flagged for a closer look

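The genotype difference of Ncf4 ran in opposite directions on the Apoa1-low and Apoa1-high arrays. Both deficient Apoa1-low arrays were above both Apoa1-low controls, with a mean difference of 1.76, and the deficient Apoa1-high array was below its control, with a difference of -1.32. The difference between these differences was -3.09, tested as an interaction in limma with an adjusted p of 0.90 and an unadjusted p of 0.0176, so it did not pass. The sets of 2 and 4 arrays were defined from the data. The cause was not tested.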

How the results depend on the processing

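All 135 values of the 7 measured members under 20 alternative settings stayed above 0 and none passed an adjusted p of 0.05, as in the main comparison. Changes of filter, moderation or block left the difference of a lead probe set as it was, so many of these values repeat. The smallest limma adjusted p were 0.0913 for Cybb and 0.0944 for Noxo1, both with array weights, while the largest over the alternatives was 0.985 for each. The unadjusted p was under 0.05 in 20 of 20 settings for Noxo1 and for Cybb, in 12 of 20 for Rac2, in 2 of 20 for Ncf1, in 3 of 20 for Ncf4 and in 2 of 15 for Duoxa2. Leaving out each array in turn gave 0.70 to 0.82 for Noxo1, 0.81 to 1.47 for Cybb, 0.07 to 0.25 for Cyba, 0.60 to 1.7 for Ncf1, 0.30 to 1.54 for Ncf4, 0.45 to 0.90 for Rac2 and 1.19 to 2.46 for Duoxa2, whose lowest value came without deficient replicate 3. The mean of the kept Ncf1 probe sets differed by 0.66. The number of genes past the threshold was 0 except when every kept probe set was tested on its own, which gave 1 (a Uqcr10 probe set), and with array weights, which gave 2 (Pla2g5 and Bhmt2). Deviations from the group means correlated at -0.54, 0.36 and -0.61 between same-numbered arrays of replicates 1, 2 and 3. Between the Apoa1-high arrays, control replicate 1 and deficient replicate 3, the correlation was 0.69. These values mix in the tissue profile, so they cannot decide whether the numbers pair the mice. With a replicate block 0 genes passed, and Noxo1 differed by 0.75 with an adjusted p of 0.893. The interaction with tissue profile, the counts by tissue profile, the list counts without genes kept only through the deficient arrays and the unfiltered fit of every probe set were chosen after the data were examined. Values near the floor, such as those of Duoxa2, are limited by signal over background.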
